A study of Rattus norvegicus with 18 samples.

Results

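Colq, Pcp4l1 and Pcsk5 are 3 of the 21574 genes compared in rat primary hepatocytes after exposure to DDMB, DDEB, CDMB or CDEB, compounds that the study's title calls p-dialkoxy chlorobenzenes. They were chosen by their measured values, a signal that was higher with DDMB and with DDEB than with DMSO, so those comparisons are given as descriptions with no test. The question left to test is whether CDMB and CDEB raised the same genes. All 3 belong to the 15 genes, 0.0695% of those compared, that were higher at a limma adjusted p under 0.05 in both the DDMB and the DDEB comparison. Taken singly, 0.227% of the genes were called higher with DDMB and 0.718% with DDEB. These counts only restate the choice, and with the 6 arrays of each comparison fitted alone limma called no gene. Of these 15 genes, 11 have a plain symbol, among them also Abcd3, Abcg5, Crat, Cyp3a23-3a1, Gls2, Pdk4 and Pla2g6.

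The cells were cryopreserved hepatocytes of male Sprague Dawley (SD) rats. After 24 h of preculture they received DDMB, DDEB, CDMB or CDEB at 300 µM, or DMSO alone, for 24 h, with 3 independent experiments in each of 6 groups and 1 Agilent one-colour array for each of the 18 samples. The DMSO group VC_1 is the control of DDMB, CDMB and CDEB, and the DMSO group VC_2 is the control of DDEB, because the study used different chip lots. Nothing in the labels ties the experiments to separate animals, and the p-values cover only the spread among the cultures.

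Colq encodes the collagen tail that anchors acetylcholinesterase in the basal lamina of the neuromuscular junction, where the enzyme ends the signal by cleaving acetylcholine. Pcp4l1 encodes a small protein that resembles Pcp4, a regulator of calmodulin, the calcium sensor of most cells. Pcsk5 encodes a proprotein convertase, a protease of the secretory pathway that cuts inactive precursors of growth factors, hormones and enzymes at basic residues. Proprotein convertases act in the liver on secreted proteins of lipid metabolism, while the collagen tail of acetylcholinesterase is best known from muscle.

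In the GRCr8 assembly of RefSeq, Colq (gene ID 29755) lies on chromosome 16 at 6738251 to 6830492, Pcp4l1 (gene ID 685448) on chromosome 13 at 86121463 to 86145097, and Pcsk5 (gene ID 116548) on chromosome 1 at 224263823 to 224694350. The promoter windows are shown because the genes were chosen for rises with both DDMB and DDEB. RefSeq's GRCr8 table has a window, 250 bases before to 50 bases after a gene's start, for 2 of the 3 genes, Pcp4l1 and Pcsk5. Both genes are on the minus strand, both sequences read 5′ to 3′ along the gene, and capitals mark every match to the motifs named after them.
Pcp4l1, chr13:86144850-86145149: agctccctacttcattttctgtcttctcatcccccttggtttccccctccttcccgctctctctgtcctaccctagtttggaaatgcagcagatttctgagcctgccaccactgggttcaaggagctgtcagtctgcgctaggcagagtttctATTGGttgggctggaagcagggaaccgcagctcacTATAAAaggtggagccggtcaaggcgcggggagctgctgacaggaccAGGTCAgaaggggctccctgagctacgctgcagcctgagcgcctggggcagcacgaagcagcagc
Pcsk5, chr1:224694298-224694597: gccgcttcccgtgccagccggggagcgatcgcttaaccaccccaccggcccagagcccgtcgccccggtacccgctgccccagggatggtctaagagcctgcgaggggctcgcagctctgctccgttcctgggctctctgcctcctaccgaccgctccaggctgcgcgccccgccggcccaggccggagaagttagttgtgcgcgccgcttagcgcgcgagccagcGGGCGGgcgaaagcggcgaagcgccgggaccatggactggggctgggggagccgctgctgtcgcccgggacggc
The start used for Pcp4l1 lies inside the gene's span, which reaches further upstream.

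Counted from the start as position 0, the Pcp4l1 window holds ATTGG, which is the CCAAT box on the other strand, at -97, the letters of a TATA box (TATAAA) at -62 and AGGTCA, a site of nuclear receptors, at -15. These matches lie within the gene's span, and whether they act was not tested. The Pcsk5 window holds 1 match, the GC box GGGCGG at -24. Searched on both strands in all 27457 windows of 300 bases, CCAAT occurred in 37.7%, TATAAA in 14.3%, AGGTCA in 15.7% and GGGCGG in 34.9% of them. The DR1 element, a direct repeat of AGGTCA (0.0583% of windows), TGACGTCA (1.91%), TGANTCA (7.33%), GCGTG (31.1%) and CACGTG (6.65%) matched neither window, which says only that these letters are not there. The Pcp4l1 window had 58.3% G and C and the Pcsk5 window 74.0%, beside a median of 52.3% over all windows.

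Each file lists 62976 spots, 58717 of them probe spots, of which 61.0% to 64.3% lay well above background on an array and none was saturated. The genes have 5 probes with 1 spot each. A level is the log2 signal of a probe minus the log2 of the array's 75th percentile, which stood at an intensity of 430 to 654. The 8 hepatocyte markers (Alb, Apoa1, Ttr, Tf, Serpina1, Cps1, Hnf4a and Asgr1) were all above background on every array. The arrays lie on 4 slides: VC_1 with DDMB on one, VC_2 with DDEB replicates 1 and 2 on another, DDEB replicate 3 on its own, and CDMB with CDEB together. CDMB and CDEB are therefore compared with VC_1 across slides, where compound and slide cannot be told apart, whereas CDEB minus CDMB and DDMB minus VC_1 lie within a slide. Same-numbered DMSO arrays of both lots deviated together from their group means across the 21574 genes (r = 0.634, 0.468 and 0.808, genes not being independent). Replicate 1 of one lot and replicate 2 of the other did so too (r = 0.374 and 0.350). Replicate 3 paired with another number gave r from -0.678 to -0.516. The labels do not say whether VC_1 and VC_2 hold RNA of the same cultures.

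With CDMB and with CDEB, none of the 3 genes passed the test against VC_1, although each mean was higher than that of VC_1. With CDMB, 0 of 3 were called by limma, beside 0.0417% of all genes called in either direction, and 2 of 3 were higher at an unadjusted p under 0.05, beside 6.82% of all genes. With CDEB, 0 of 3 were called by limma, beside 0.134% of all genes, and 3 of 3 were higher at an unadjusted p under 0.05, beside 7.49% of all genes. Both tests use the VC_1 arrays that also entered the choice of the genes through DDMB, so they are not independent of it. Array by array, all 3 CDMB arrays lay above all 3 VC_1 arrays for Colq and Pcp4l1 but not Pcsk5, a pattern that 13% of all genes showed. All 3 CDEB arrays lay above all VC_1 arrays for each of the 3 genes, as they did for 15.8% of all genes. In such bulk RNA, a different number of cells with a transcript and a different amount per cell cannot be told apart.

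**Figure D1:**
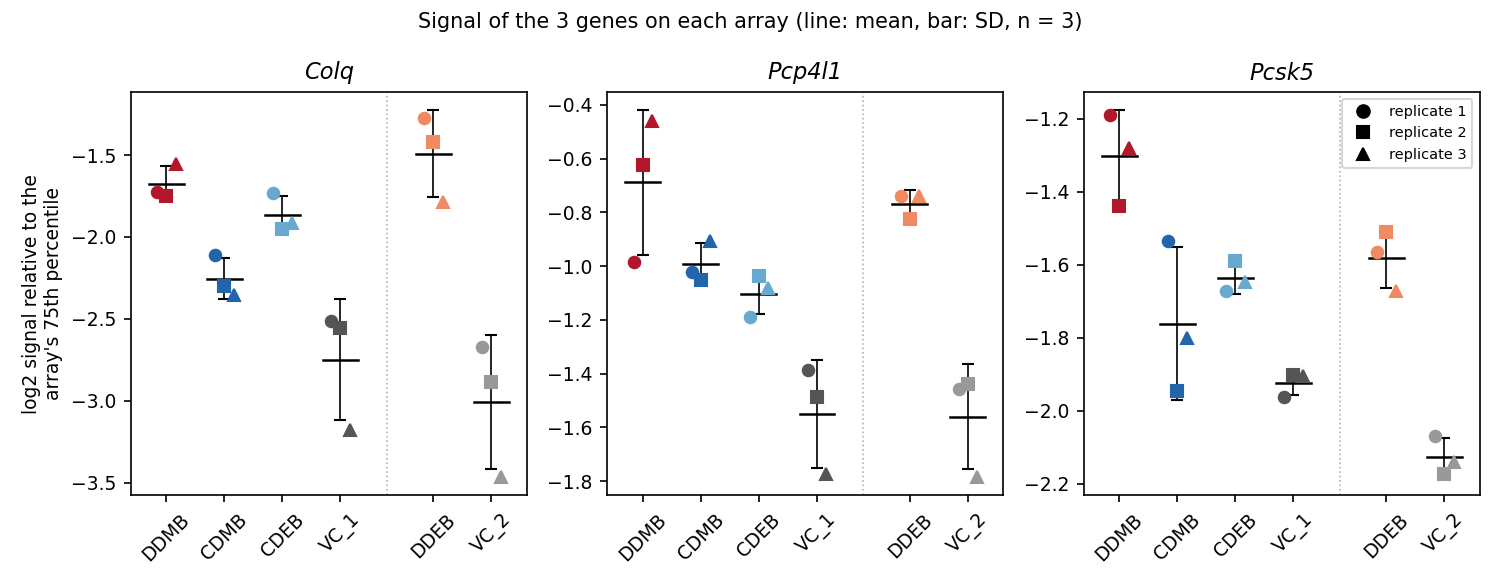
Level of Colq, Pcp4l1 and Pcsk5 (brighter probe) on each of the 18 arrays, as log2 signal relative to the array's 75th percentile, with the mean and SD of each group (n = 3) and a dotted line between the chip lots. For Colq and Pcp4l1 all 12 treated arrays lie above the arrays of their own DMSO group, and for Pcsk5 11 of 12 do, CDMB replicate 2 being the exception. The choice of the genes fixes this for DDMB and DDEB, and CDMB and CDEB share VC_1 with DDMB. Taken singly, all 3 arrays lay above the control in 8.55% of all genes with DDMB and 10.5% with DDEB. The share was 13% with CDMB and 15.8% with CDEB.

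Colq was the member with the largest difference for DDMB, DDEB and CDEB. Its level was -1.73, -1.75 and -1.55 on the DDMB arrays, against -2.51, -2.56 and -3.18 on the VC_1 arrays. On the DDEB arrays it was -1.27, -1.42 and -1.79, against -2.67, -2.89 and -3.47 on the VC_2 arrays. Neither compound overlapped its control, and replicate 3 was the lowest array in both DMSO groups. All 3 DDMB arrays lay above all VC_1 arrays for each of the 3 genes, beside 8.55% of all genes, and the same held for DDEB against VC_2, beside 10.5%, counts that the choice of the genes fixes. The difference was 1.07 ± 0.20 for DDMB (log2 ± SE, 2.10-fold, 95% interval 0.63 to 1.51) and 1.52 ± 0.20 for DDEB (2.86-fold, 1.08 to 1.95). The DDEB effect minus the DDMB effect was 0.44, with an interval of -0.18 to 1.06 that includes 0.

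On the CDEB arrays the Colq level was -1.73, -1.95 and -1.92, and on the CDMB arrays -2.11, -2.30 and -2.35, against the VC_1 values above. Every array of both compounds lay above the highest VC_1 array, the CDMB arrays by less. CDEB minus VC_1 was 0.88 ± 0.20 (1.84-fold, interval 0.44 to 1.32, higher on 3 of 3 arrays, limma adjusted p = 0.125), a difference larger than that of 99.2% of all genes. CDMB minus VC_1 was 0.49 ± 0.20 (1.41-fold, interval 0.06 to 0.93, higher on 3 of 3 arrays, limma adjusted p = 0.338), larger than that of 96.1% of genes. VC_1 replicate 3 weighed on both: without it the difference was 0.67 for CDEB and 0.28 for CDMB (interval -0.14 to 0.70), and 0.86 for DDMB. Without VC_2 replicate 3, DDEB minus VC_2 was 1.29.

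From low to high, the Colq means were -3.01 ± 0.41 in VC_2, -2.75 ± 0.37 in VC_1, -2.25 ± 0.13 with CDMB, -1.87 ± 0.12 with CDEB, -1.68 ± 0.11 with DDMB and -1.49 ± 0.27 with DDEB (mean ± SD, n = 3 each). The arrays of VC_2 and VC_1 overlapped, as did those of CDEB with DDMB and of DDMB with DDEB, whereas CDMB stood clear of both its neighbours. These levels are ranked across both chip lots, and CDMB lies on another slide than its lower neighbour VC_1. The CDEB and CDMB arrays did not overlap, as in 19.5% of all genes, but their difference of 0.39 ± 0.20 did not pass the test (interval -0.05 to 0.83, limma adjusted p = 1.00). Its interval excluded 0 with the 6 arrays of that slide fitted alone (0.17 to 0.61) and with a replicate block (0.04 to 0.73). The same held with normexp (0.04 to 0.64) and in the authors' deposited tables (0.03 to 0.74). It included 0 with quantile scaling (-0.04 to 0.80), with slide as a random block (-0.03 to 0.81) and in every fit that left out a single array. The lowest adjusted p of limma under any of the alternatives was 0.204. As descriptions, DDMB minus CDMB was 0.58 (0.14 to 1.02) and DDMB minus CDEB was 0.19 (-0.25 to 0.63). The DDEB effect exceeded the CDMB effect by 1.02 (0.40 to 1.64) and the CDEB effect by 0.63 (0.01 to 1.25). A second Colq probe was well above background on none of the 18 arrays (group means of 2.68 to 9.18 in intensity, against 72.4 to 183 for the probe used) and therefore carries no reading of these differences.

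**Figure D2:**
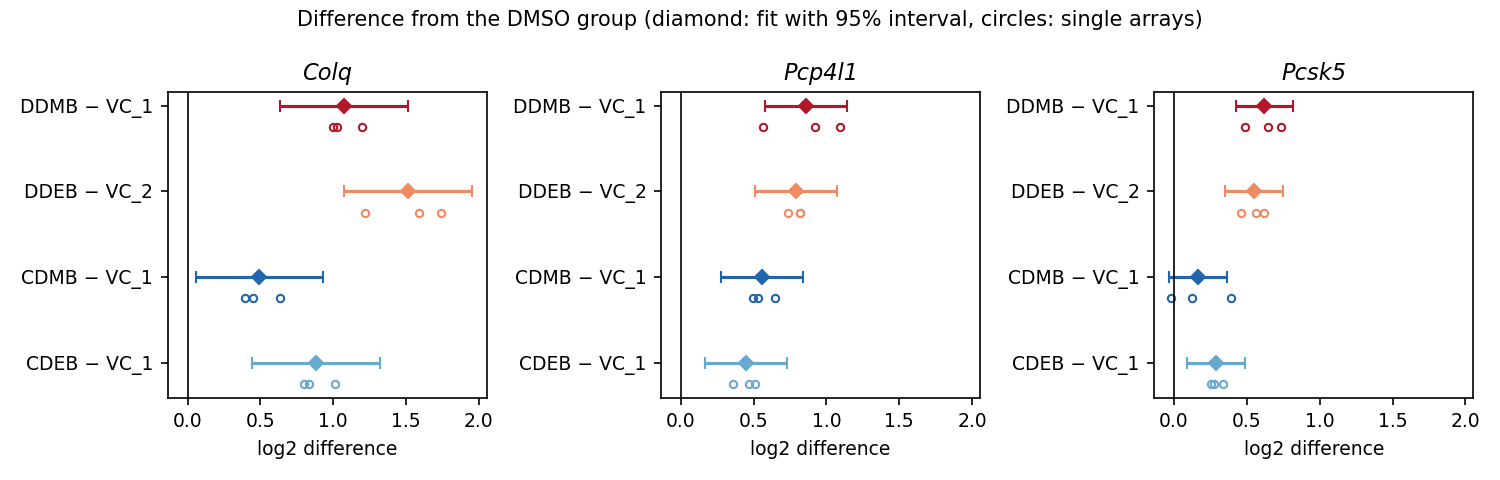
Log2 difference from the DMSO group for each gene and compound, with diamonds and bars for the fitted difference and its 95% interval and open circles for single treated arrays minus the mean of their DMSO group. Drawn without a slide block, the intervals of Colq and Pcp4l1 lie above 0, and for Pcsk5 that of CDMB reaches from -0.04 to 0.36. With slide as a random block those of Colq with CDMB and of Pcp4l1 and Pcsk5 with CDEB include 0 as well.

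Pcp4l1, the calmodulin regulator's relative, had levels of -0.98, -0.62 and -0.46 with DDMB, against -1.39, -1.49 and -1.77 in VC_1. With DDEB the levels were -0.74, -0.82 and -0.74, against -1.46, -1.44 and -1.78 in VC_2. The DDEB arrays were close together while DDMB replicate 1 lay below the other two, and neither compound overlapped its control. The differences were close in size, 0.86 ± 0.13 for DDMB (1.82-fold, interval 0.58 to 1.14) and 0.79 ± 0.13 for DDEB (1.73-fold, 0.51 to 1.08). The DDEB effect minus the DDMB effect was -0.07 (-0.47 to 0.33).

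With CDMB the Pcp4l1 level was -1.02, -1.05 and -0.90, and with CDEB -1.19, -1.04 and -1.08, against the VC_1 values above. These 6 arrays lay between the VC_1 arrays and the DDEB arrays with no overlap of either. CDMB minus VC_1 was 0.56 ± 0.13 (1.47-fold, interval 0.27 to 0.84, higher on 3 of 3 arrays, limma adjusted p = 0.173), larger than in 97.0% of genes. CDEB minus VC_1 was 0.45 ± 0.13 (1.36-fold, 0.16 to 0.73, higher on 3 of 3 arrays, limma adjusted p = 0.205), larger than in 94.9% of genes. Unlike in Colq, the CDEB mean was the lower one: CDEB minus CDMB was -0.11 ± 0.13 (-0.39 to 0.17, limma adjusted p = 1.00), and whether the genes differ in this was not tested. Without VC_1 replicate 3, again the lowest array of its group, the differences were 0.45 for CDMB, 0.33 for CDEB and 0.75 for DDMB.

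In order of the means, Pcp4l1 stood at -1.56 ± 0.20 in VC_2, -1.55 ± 0.20 in VC_1, -1.10 ± 0.08 with CDEB, -0.99 ± 0.08 with CDMB, -0.77 ± 0.05 with DDEB and -0.69 ± 0.27 with DDMB (mean ± SD, n = 3 each). Neighbouring arrays overlapped within 3 pairs, VC_2 with VC_1, CDEB with CDMB and DDEB with DDMB, and not from one pair to the next, although DDMB replicate 1 lay within the CDMB range. Here too the levels are ranked across both chip lots. DDMB minus CDMB was 0.30 (0.02 to 0.59) and DDMB minus CDEB was 0.41 (0.13 to 0.70), as descriptions. The DDEB effect minus the CDMB effect was 0.23 (-0.17 to 0.64) and minus the CDEB effect 0.35 (-0.05 to 0.75), both with intervals that include 0.

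Pcsk5, the proprotein convertase, has 2 probes above background on all 18 arrays, and the brighter one stands for the gene. Its level was -1.19, -1.44 and -1.28 with DDMB, against -1.96, -1.90 and -1.91 in VC_1. With DDEB it was -1.56, -1.51 and -1.67, against -2.07, -2.17 and -2.14 in VC_2. The DMSO arrays of both lots were tight (SD 0.03 in VC_1 and 0.05 in VC_2), and the lots themselves did not overlap, VC_2 being the lower. The differences were the smallest of the 3 genes, 0.62 ± 0.09 for DDMB (1.54-fold, interval 0.42 to 0.82) and 0.55 ± 0.09 for DDEB (1.46-fold, 0.35 to 0.75), and the DDEB effect minus the DDMB effect was -0.07 (-0.36 to 0.21).

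With CDEB the Pcsk5 level was -1.67, -1.59 and -1.65, and with CDMB -1.54, -1.95 and -1.80, against the VC_1 values above. The CDEB arrays all lay above VC_1, whereas CDMB replicate 2 lay within the VC_1 range and CDMB replicate 1 above all CDEB arrays. CDEB minus VC_1 was 0.29 ± 0.09 (1.22-fold, interval 0.09 to 0.49, higher on 3 of 3 arrays, limma adjusted p = 0.229), larger than in 88.6% of genes. CDMB minus VC_1 was 0.16 ± 0.09 (1.12-fold, -0.04 to 0.36, higher on 2 of 3 arrays, limma adjusted p = 0.451), larger than in 77.7% of genes. Single arrays moved this value, which was 0.05 without CDMB replicate 1 and 0.26 without CDMB replicate 2. CDEB minus CDMB was 0.12 ± 0.09 (-0.07 to 0.32, limma adjusted p = 1.00), and it was 0.24 without CDMB replicate 1 and 0.03 without CDMB replicate 2.

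The Pcsk5 means ran from -2.13 ± 0.05 in VC_2 over -1.92 ± 0.03 in VC_1, -1.76 ± 0.21 with CDMB, -1.64 ± 0.04 with CDEB and -1.58 ± 0.08 with DDEB to -1.30 ± 0.13 with DDMB (mean ± SD, n = 3 each). On this scale of levels, which spans both chip lots, neighbours overlapped from VC_1 up to DDEB. Only VC_2 at the low end and DDMB at the high end stood apart. Relative to the mean of their own DMSO group, the DDMB arrays (0.48 to 0.73) and the DDEB arrays (0.46 to 0.62) overlapped. Described against the other compounds, DDMB was higher than CDMB by 0.46 (0.26 to 0.66) and than CDEB by 0.33 (0.13 to 0.53). The DDEB effect exceeded the CDMB effect by 0.38 (0.10 to 0.67), and its excess over the CDEB effect, 0.26 (-0.02 to 0.54), has an interval that includes 0.

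The dimmer Pcsk5 probe gave another order of the compounds. Its level was -3.55, -4.09 and -3.82 with DDMB, -3.66, -4.06 and -3.72 with CDMB and -3.64, -3.73 and -3.40 with CDEB, against -4.04, -4.03 and -4.29 in VC_1. It was -3.67, -3.77 and -3.94 with DDEB, against -3.95, -4.19 and -4.24 in VC_2. All neighbours in the order of its means overlapped, and 10 of 12 treated arrays lay above their DMSO group. Here CDEB showed the largest difference, 0.53 ± 0.15 (0.21 to 0.85, limma adjusted p = 0.188), followed by DDEB with 0.33 ± 0.15, CDMB with 0.31 ± 0.15 (limma adjusted p = 0.393) and DDMB with 0.30 ± 0.15. DDMB minus CDMB was -0.01 (-0.33 to 0.31) on this probe, against 0.46 on the brighter probe, so the probes of Pcsk5 disagree on whether DDMB exceeded CDMB and CDEB. The files do not show which transcripts each probe reads, and the part of transcript choice was not tested.

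**Figure D3:**
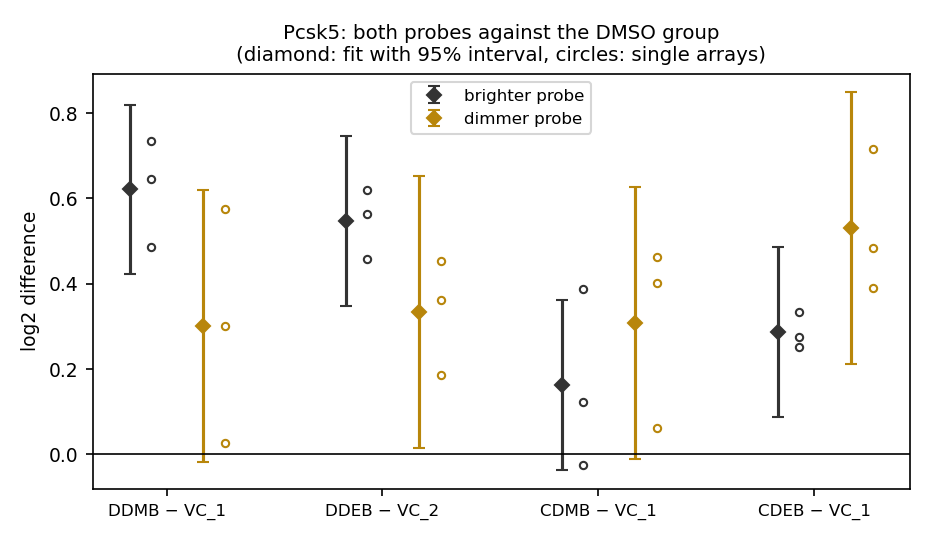
Log2 difference from the DMSO group at the brighter and the dimmer Pcsk5 probe for each compound, with diamonds and bars for the fitted difference and its 95% interval and open circles for single arrays. The brighter probe gives 0.62 with DDMB and 0.16 with CDMB, while the dimmer probe lies between 0.30 and 0.53 with all 4 compounds.

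CDEB and CDMB were compared within their shared slide, where limma called 0 of 3 genes and 0 of all 21574 (0%), with 0 of 3 at an unadjusted p under 0.05 beside 1018 of all genes (4.72%). The intervals still allow Colq to be up to 0.83 higher with CDEB on the log2 scale. All 4 compounds were given at the same dose and for the same time.

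Spike-in RNA that was added at labelling offers a reading of the slides apart from the cells. Of 10 spike-in controls, 8 had a lower level with CDMB and 8 with CDEB than in VC_1. The same 8 were also lower with DDMB, on the slide of VC_1, so the count is not particular to the CDMB and CDEB slide. Their differences from VC_1 ran from -0.14 to -0.01 with DDMB, -0.65 to -0.09 with CDMB and -0.58 to -0.10 with CDEB. One of them, (+)E1A_r60_a107, with 35 spots on each array, is about as bright as the 3 genes. Its mean level was -1.90 with DDMB, -2.29 with CDMB and -2.25 with CDEB, against -1.83 in VC_1, and it was -2.21 with DDEB, against -1.96 in VC_2. Its difference from VC_1 was -0.47 with CDMB and -0.43 with CDEB, and CDEB minus CDMB was 0.04. This spike-in also varied within a slide, with -2.40 and -2.35 for DDEB replicates 1 and 2, against -1.81, -1.86 and -2.20 in VC_2. DDEB replicate 3, on its own slide, stood at -1.88, so this control does not read the slide alone. The part of the slide in the values of the 3 genes was not tested. With DDEB replicate 3 left out and slide as a fixed block, DDEB minus VC_2 within the shared slide was 1.66 for Colq, 0.78 for Pcp4l1 and 0.59 for Pcsk5. With slide as a random block (correlation 0.446) the CDMB and CDEB differences kept their size, and the intervals widened, to 0.11 to 1.66 for Colq with CDEB and 0.04 to 1.08 for Pcp4l1 with CDMB (limma adjusted p = 1.00 for each). The other 4 intervals then included 0, namely -0.28 to 1.27 for Colq with CDMB, -0.07 to 0.97 for Pcp4l1 with CDEB, and -0.07 to 0.64 with CDEB and -0.19 to 0.52 with CDMB for Pcsk5. The descriptions of DDMB against CDMB and CDEB cross slides as well. With the same block, Pcsk5 for DDMB minus CDMB (0.10 to 0.81) was the only one of these 6 differences whose interval excluded 0. DDMB minus CDMB then ran over -0.20 to 1.35 for Colq and -0.22 to 0.82 for Pcp4l1, and DDMB minus CDEB over -0.02 to 0.69 for Pcsk5. Of the differences between the DDEB effect and the CDMB or CDEB effect, Colq over CDMB (0.20 to 1.99) was the only one to exclude 0.

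The genes with the most similar profile were sought among the 10787 tested genes with a plain symbol, by the root mean square difference over the 18 arrays of the level minus the mean of the DMSO group of the same lot. For Pcsk5 these included Cyp3a23-3a1 (0.137), a drug-metabolising P450, Abcd3 (0.145), a transporter of the peroxisomal membrane, Crat (0.150), the carnitine acetyltransferase, and Hsdl2 (0.166). For Pcp4l1 they were Abcg5 (0.186), a subunit of the sterol exporter, the small heat shock protein gene Hspb1 (0.206), Crat (0.219), C1h11orf86 (0.234) and Tex36 (0.238). For Colq the distances were larger, and its nearest genes included Abcg5 (0.383), C1h16orf92 (0.391, above background on 12 of 18 arrays), Pcp4l1 itself (0.398) and the GABA transporter gene Slc6a13 (0.425). Among the 3 genes, Pcp4l1 and Pcsk5 lay 0.284 apart, Colq and Pcp4l1 0.398, and Colq and Pcsk5 0.559. The measure favours genes with small changes, since a gene that hardly moves is near every other such gene.

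Their mean differences show where these profiles part. Abcg5 stood 1.02 higher with DDMB, 0.89 with DDEB, 0.69 with CDMB and 0.34 with CDEB on the log2 scale, a decline towards CDEB that resembles Pcp4l1. Abcd3 stood 0.40, 0.46, 0.19 and 0.21 higher with DDMB, DDEB, CDMB and CDEB, with the smaller values at CDMB and CDEB, as for the brighter Pcsk5 probe and not the dimmer one. Slc6a13 stood 0.49, 0.77, 0.49 and 0.56 higher in that order, with its largest value at DDEB, as for Colq. These genes were picked for their likeness on these same arrays, so the resemblance follows from the choice. The profiles also include the arrays on which the members were chosen.

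**Figure D4:**
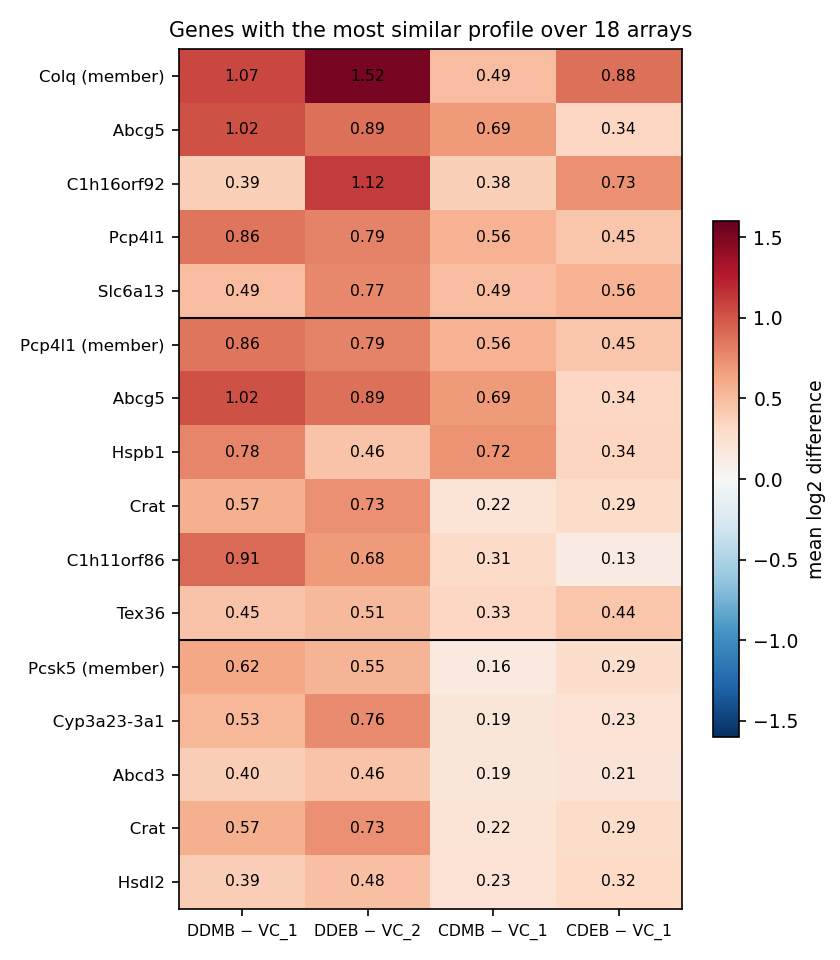
Mean log2 difference from the DMSO group (colour and printed value) for Colq, Pcp4l1 and Pcsk5 and, under each, genes among the 5 with the most similar profile over 18 arrays; columns are the comparisons of the 4 compounds. The genes under Pcsk5 have CDMB values of 0.19 to 0.23 and CDEB values of 0.21 to 0.32, while the genes under Colq vary more.

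Genes that work with Colq in acetylcholine signalling are read beside a background of 0.344% of all tests over the 5 comparisons called by limma and 11.3% at an unadjusted p under 0.05. Of 18 listed genes of cholinesterase anchoring and the neuromuscular junction 8 were tested, and limma called 0 in each comparison, with 4 of 40 tests (10%) at an unadjusted p under 0.05. Ache, the enzyme that the Colq tail carries, was not well above background on all 3 arrays of any group and was not tested, nor were Musk, Rapsn, Dok7, Chrnd, Chrne, Chrng, Chat and Slc5a7. Bche, the plasma cholinesterase, differed by -0.02 with DDMB, -0.19 with DDEB, 0.06 with CDMB and 0.03 with CDEB (SE 0.14 each). The list's median difference was -0.14 with DDMB, -0.30 with DDEB, 0.06 with CDMB and -0.0031 with CDEB, while the median of all genes lay between 0.01 and 0.02. Lrp4, the agrin receptor, differed by -0.57 ± 0.16 with DDMB (limma adjusted p = 0.168).

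Of 23 listed genes of calmodulin and its partners 12 were tested, limma called 0 in each comparison, and 7 of 60 tests (11.7%) had an unadjusted p under 0.05, beside 11.3% of all tests. Pcp4, the nearest relative of Pcp4l1, and the calmodulin-binding genes Nrgn and Gap43 did not pass the brightness filter. The list's median difference was 0.03 with DDMB, -0.07 with DDEB, -0.04 with CDMB and -0.09 with CDEB.

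Of 25 proprotein convertases, their inhibitors and substrates 16 were tested, with 0 called by limma in each comparison and 12 of 80 tests (15%) at an unadjusted p under 0.05, beside 11.3% of all tests. Furin, the ubiquitous convertase, differed by 0.21 with DDMB, 0.17 with DDEB, 0.31 with CDMB and 0.38 with CDEB (SE 0.13 each), with its larger values where the brighter Pcsk5 probe, but not the dimmer one, had its smaller differences. Pcsk6, the closest relative of Pcsk5, differed by 0.27, 0.23, 0.60 and 0.71 in that order with a wide error (SE 0.40 each), and Pcsk7 by -0.01, -0.10, 0.09 and 0.12. The list's medians were 0.04, -0.01, 0.05 and 0.09.

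**Figure D5:**
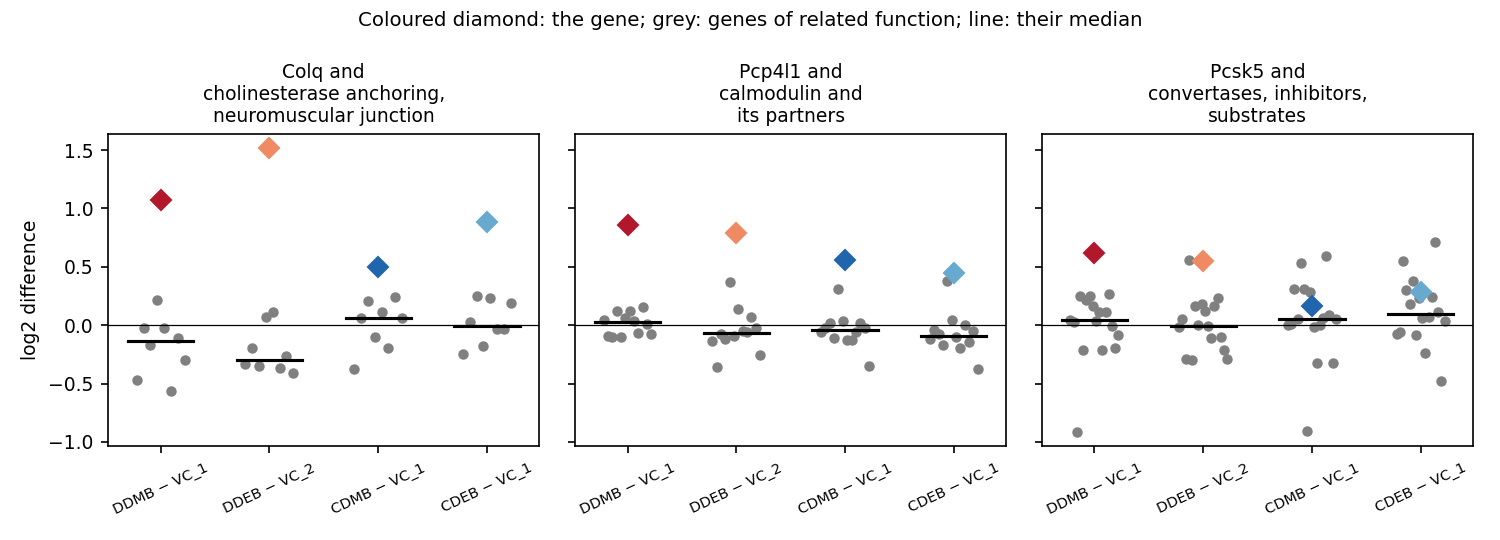
Log2 difference from the DMSO group for Colq, Pcp4l1 and Pcsk5 (coloured diamonds) and for the tested genes of related function (grey points, with a line at their median), by compound. Colq and Pcp4l1 lie above every tested gene of their lists with all 4 compounds, and Pcsk5 lies among its list with DDEB, CDMB and CDEB. The 3 genes, unlike the lists, were chosen for their rises with DDMB and DDEB, and the CDMB and CDEB differences share VC_1 with DDMB.

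Markers of other cells were looked at because Colq is best known from muscle. Of 45 listed markers of 7 cell types 27 were tested, limma called 0 in each comparison, and 13 of 135 tests (9.63%) had an unadjusted p under 0.05, beside 11.3% of all tests. Of the skeletal muscle list, Acta1, Ckm and Mb were tested and Myh1, Myh2 and Tnnt3 were not well above background on all arrays of any group. The summed level of the 3 tested muscle genes, as multiples of the 75th percentile, was 29.0 to 31.8 with DDMB, 18.7 to 27.6 with CDMB and 31.3 to 34.1 with CDEB, against 26.2 to 30.1 in VC_1, and 26.5 to 30.1 with DDEB, against 24.3 to 28.5 in VC_2. This sum is nearly all Acta1, whose mean level was 4.81 in VC_1, where Ckm stood at -5.07 and Mb at -0.98. In the other chip lot Ckm stood at -0.38 in VC_2 and -0.83 with DDEB. It was well above background on 2 of 3 arrays each in VC_1, CDMB and CDEB, so its differences from VC_1 rest on values near background. Ckm differed by 0.37 with DDMB, -0.45 with DDEB, 0.26 with CDMB and 0.38 with CDEB (SE 0.33 each), and Mb by 0.12, -0.11, 0.11 and 0.18 in that order (SE 0.13 each). The part of these differences in the Colq values was not tested.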

How the data were processed

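RNA of 18 hepatocyte samples (6 groups of 3) was labelled with Cy3 and hybridised to one-colour Agilent arrays. Intensity came from Agilent Feature Extraction 10.7.1.1, per the file headers, whose processed column has the background subtracted and spatial trends removed. The authors also deposited 2 tables of linear signal, one per chip lot. No source used here gives their scaling, and they served as an alternative on the log2 scale, each table fitted apart.

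Deposited processed intensities were put on the log2 scale, unflagged spots of 1 probe were averaged, and the log2 75th percentile of the array was subtracted. A probe was named through its accession without version in the RefSeq gene table (GRCr8). This gave a name to 21109 of 45598 probes, for 16581 genes. The file headers name build rn4, and coordinates in the text are RefSeq's. Probes with a flagged spot on at least 1 array were left out (435). Kept were the 25306 probes that 1 or more groups showed well above background on each of their 3 arrays, and the brightest kept probe stood for a gene (21574 genes). That filter kept 4 of the 5 probes of Colq, Pcp4l1 and Pcsk5. All 18 arrays were fitted by group with limma 3.58.1 in R 4.3.3 (lmFit, eBayes, 12 residual degrees of freedom), p-values were adjusted by Benjamini-Hochberg over all genes of a comparison, and a gene was called at an adjusted p under 0.05. Intervals are at 95%. The number of arrays limits the precision.

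The genes, the lists and the comparisons were chosen with earlier results of these data known. Every probe of the 3 genes is named, with genes among the 5 nearest to each and the closest family members or partners of each list. Some genes that this rule names are not reported here. Alternatives were normexp (offset 50), quantile scaling, another percentile, no brightness filter, every probe, 6 arrays only, slide blocks, a replicate block, the deposited tables and leaving out single arrays. The files have no column of mean signal, so normexp used the median signal with the median background. The fit was tested on simulated data. Same-numbered arrays of a compound and its control did not deviate together in every pair (r from -0.421 to 0.557), so the numbers were not taken as pairs.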

Additional observations from a re-analysis of the deposited data

How the results depend on the processing

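Of the differences of Colq, Pcp4l1 and Pcsk5, those for CDMB and CDEB kept their sign and stayed above an adjusted p of 0.05 under every alternative run (lowest limma adjusted p = 0.0546, Colq with CDEB), as did CDEB minus CDMB. With normexp, Colq stood at 0.73 with DDMB and 1.02 with DDEB, and Pcsk5 at 0.45 with DDMB, 0.43 with DDEB and 0.10 with CDMB, while CDEB minus CDMB was -0.05 for Pcp4l1. Not every difference became smaller: Pcsk5 with CDEB was 0.29 in both settings, and its CDEB minus CDMB was 0.19 with normexp, against 0.12 as reported. The part of the normexp offset was not tested. Leaving out 1 array at a time gave 0.86 to 1.19 (DDMB), 1.29 to 1.68 (DDEB), 0.28 to 0.61 (CDMB) and 0.67 to 1.00 (CDEB) for Colq. The ranges for Pcp4l1 were 0.75 to 1.01, 0.68 to 0.85, 0.45 to 0.64 and 0.33 to 0.53, and for Pcsk5 0.56 to 0.69, 0.51 to 0.59, 0.05 to 0.26 and 0.26 to 0.31, in the same order. CDEB minus CDMB ranged over 0.32 to 0.46 for Colq, -0.14 to -0.07 for Pcp4l1 and 0.03 to 0.24 for Pcsk5.

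Counts of called genes depended on the setting, and a count of 0 leaves the 3 genes uncalled as well. In the order DDMB, DDEB, CDMB and CDEB, the counts were 120, 213, 9 and 29 as reported and 74, 72, 2 and 8 with normexp. With no brightness filter they were 49, 215, 0 and 6, and with slide as a random block 189, 191, 0 and 0. They were 90, 0, 1 and 8 in the deposited tables and 0 in each comparison when only its 6 arrays were fitted. Quantile scaling gave 325 for DDEB, and slide as a fixed block gave 0. The replicate block, on numbers that did not deviate together in every pair of compound and control, gave 165, 436, 16 and 40 calls, with 1 DDEB call each in the calmodulin and the convertase lists, and left the differences of the 3 genes as they were. Leaving out 1 array gave 39 to 198, 51 to 359, 0 to 6 and 0 to 9 calls, and 0 to 1 for CDEB minus CDMB. The cause was not tested.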
